A study of Mus musculus with 29 samples.

Results

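Secreted factors and receptors of blood vessel growth, 8 genes in all, were followed through the cells of the mouse brain after stroke. They were the ligands Vegfa, Angpt2 and Apln, the receptors Flt1, Kdr, Tek and Tie1, and the secreted endothelial protein Esm1. The 8 genes were taken by name, and all 8 were among the 19577 genes held by every brain table. Single cells had been captured by Drop-seq, in which droplets pair each cell with a barcoded bead, from 18 brain libraries of C57BL/6J mice. For stroke the middle cerebral artery had been blocked for a time, and sham-operated mice were the controls.

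The young mice were males of 8 to 10 weeks, with 4 sham libraries at day 2, 4 stroke libraries at day 2 and 4 stroke libraries at day 14. The aged mice were 17 to 20 months old, with 2 sham libraries at day 2 (1 male, 1 female), 3 stroke libraries at day 2 (1 male, 2 female) and 1 female stroke library at day 14. No sham was taken at day 14, and both stroke groups are set against the day 2 sham, so stroke and time since surgery cannot be told apart at day 14. Every library pooled 4 to 5 hemispheres and held 3 sorted fractions: microglia, CD45-high leukocytes, and CD45-negative Ly6C-high endothelial cells, so endothelial cells with little Ly6C lay outside the gate. Papain digestion was done with inhibitors of transcription. P-values measure the spread between such pools.

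VEGF-A, encoded by Vegfa, is released by many cells under low oxygen and binds 2 receptor tyrosine kinases of the endothelium. KDR (VEGFR2) carries most of the growth signal, and FLT1 (VEGFR1) binds the ligand tightly, signals weakly and also exists as a soluble trap. A second system, the angiopoietins and the receptors TEK (Tie2) and TIE1, keeps vessels quiet, and ANGPT2 from the endothelium itself loosens that hold. Apelin, encoded by Apln, and ESM1 (endocan) are known as products of endothelial tip cells, the cells that lead a sprout.

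The sequence just before the transcription start is given for Vegfa and for the 3 endothelial members called in at least 1 fit of the young mice. Each stretch is the 250 bases before the RefSeq start on the gene's strand, 5′ to 3′, in build GRCm38.p6, and capitals mark a match to a searched motif on either strand. Vegfa lies at 17:46016993-46032369 on the minus strand, with its stretch at 17:46032378-46032627. Flt1 lies at 5:147561604-147726011 on the minus strand, with its stretch at 5:147726012-147726261. Tek lies at 4:94739289-94874976 on the plus strand, with its stretch at 4:94739039-94739288. Apln lies at X:48025146-48034853 on the minus strand, with its stretch at X:48034854-48035103. The gene spans are those of GENCODE on GRCm38.
Vegfa: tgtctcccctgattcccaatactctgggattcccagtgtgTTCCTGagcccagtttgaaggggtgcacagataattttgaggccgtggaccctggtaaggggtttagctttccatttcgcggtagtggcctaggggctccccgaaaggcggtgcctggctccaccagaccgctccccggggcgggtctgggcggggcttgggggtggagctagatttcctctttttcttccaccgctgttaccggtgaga
Flt1: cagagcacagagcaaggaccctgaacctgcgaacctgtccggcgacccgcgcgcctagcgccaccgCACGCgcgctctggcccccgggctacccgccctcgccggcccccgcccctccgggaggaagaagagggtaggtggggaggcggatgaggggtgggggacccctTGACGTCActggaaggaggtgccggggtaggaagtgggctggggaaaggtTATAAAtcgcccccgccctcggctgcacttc
Tek: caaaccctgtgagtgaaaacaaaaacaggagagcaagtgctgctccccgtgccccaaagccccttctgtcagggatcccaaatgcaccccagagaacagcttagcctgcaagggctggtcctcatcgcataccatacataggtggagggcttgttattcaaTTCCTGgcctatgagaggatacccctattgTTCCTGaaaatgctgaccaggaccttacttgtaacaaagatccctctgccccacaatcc
Apln: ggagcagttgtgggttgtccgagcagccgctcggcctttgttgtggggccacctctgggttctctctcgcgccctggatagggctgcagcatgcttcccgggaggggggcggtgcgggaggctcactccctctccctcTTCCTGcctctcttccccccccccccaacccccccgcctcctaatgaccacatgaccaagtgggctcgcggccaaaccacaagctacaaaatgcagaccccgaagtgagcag
The motifs searched were the hypoxia response cores ACGTG and GCGTG, the cAMP response element TGACGTCA, the ETS cores CAGGAA and CCGGAA, the forkhead motif TGTTTAC and TATAAA. Flt1 held 1 GCGTG, 1 TGACGTCA and 1 TATAAA. Tek held 2 CAGGAA, and Vegfa and Apln held 1 each. Over the 7 members with a RefSeq stretch, CAGGAA was in 5, against 25.7% of all 32851 annotated starts, and GCGTG was in 3 (Flt1, Kdr and Esm1), against 28.2%. CCGGAA was in Kdr, against 12% of starts. TGACGTCA was in Flt1 alone of the 7, against 1.55% of starts, as was TATAAA, against 12.4%. ACGTG, present at 16.6% of starts, and TGTTTAC, present at 3.17%, were in none of the 7 windows. These are matches of letters, which do not show binding.

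The remaining members lie at 5:75932827-75978458 on the minus strand (Kdr), 4:118471191-118490061 on the minus strand (Tie1), 8:18690263-18741562 on the minus strand (Angpt2) and 13:113209659-113218098 on the plus strand (Esm1). Angpt2 lies within the span of Mcph1, and Esm1 overlaps Gzmk, each on the opposite strand. The counting is not stated to use strand, so reads that fall where the genes of a pair overlap cannot be assigned to either gene.

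The 18 libraries held 55268 cells, with 1143 to 5121 cells and 819438 to 5855047 summed counts each, and a median of 321 to 1363 counts per cell. Any 2 libraries shared at most 3 cell barcodes. Cell types are the authors' deposited annotation at 2 levels. The code EC had 8 of 8 endothelial markers at 10 or more counts, with a mean of 2620 CPM per marker against at most 93.4 CPM for any other list. The code MdC (monocyte-derived cells) had the monocyte and macrophage list highest, and Mg the microglial list. The code DC (dendritic cells) also had the monocyte and macrophage list highest, at a mean of 724 CPM per marker against 236 CPM for the dendritic list, whose 6 markers all had 10 or more counts. In 5 young libraries (sham replicate 1 and replicates 1 and 2 of both stroke times) the median mitochondrial share was under 1%. Levels are given in CPM, the gene's share (per 1e6) of all counts of that cell type in a library. CPM is not divided by gene length, so levels are compared between cells and not between genes.

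Endothelial cells were the type in which most members could be measured. A member was marked as having too few counts in a type where its counts over the young libraries, after rounding, were under 10. Kdr in MC and Flt1 in granulocytes passed this mark only through the rounding. By that mark 7 of 8 members were measurable in EC, 4 in MdC, 3 in Mg, 2 each in DC, granulocytes and the mural code MC, and 1 in NK cells, while the other 6 of 13 types had none. Apln, Tek, Tie1 and Esm1 were measurable in EC alone. Vegfa was the member that was not: 13.2 counts in 7627 endothelial cells came to 2.65 CPM (95% exact Poisson interval 1.42 to 4.52). Such intervals cover counting error only. No test is given for these levels, since the types were annotated from expression.

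Vegfa, the VEGF ligand, had most of its counts in monocyte-derived cells. They held 2526 counts, which came to 160 CPM (153 to 166) over all libraries pooled. NK cells stood at 80.1 CPM (54.4 to 114) on 31.0 counts, granulocytes at 62.8 CPM (47.3 to 81.6), dendritic cells at 33.6 CPM (28.1 to 39.8) and microglia at 4.28 CPM (3.45 to 5.25). The intervals of NK cells and granulocytes overlap, and those of MdC, DC and Mg are separate from each other. The order of MdC and granulocytes was not the same in every group: the young pooled levels were 29.3 CPM (11.5 to 61.3) in MdC and 24.1 CPM (9.69 to 49.7) in granulocytes after sham, 138 (130 to 146) and 34.0 CPM (13 to 72.3) at day 2, and 182 (169 to 195) and 195 CPM (134 to 276) at day 14. Only the day 2 intervals are separate. Within the monocyte-derived cells, the deposited subtype MdC2 was highest at 248 CPM (232 to 265), and MdC4 and MdC5 followed at 187 (171 to 204) and 183 CPM (164 to 203). MdC6 at 126 CPM (111 to 142) and MdC1 at 108 CPM (97.8 to 119) had overlapping intervals, and MdC3 was lowest at 54.1 CPM (44.0 to 65.9). These levels pool groups in which the subtypes were unequally common, so they mix time with subtype, and the levels by group follow the comparison of the stroke times.

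Vegfa in monocyte-derived cells was higher after stroke than after sham at both times, in a comparison limited by the few such cells in sham brain. In young sham libraries its level was 17.8, 81.6, 0 and 0 CPM, on 43 to 99 cells per library. At day 2 after stroke it was 197, 156, 105 and 88.5 CPM, on 1468 to 2180 cells. At day 14 it was 238, 194, 91.6 and 211 CPM, on 489 to 857 cells. Every stroke library lay above every sham library, as for 4.79% of the 8080 genes tested, and the stroke times overlapped. In sham replicates 3 and 4, both at 0, 3 counts would be 74.2 and 164 CPM. The second lies above the day 2 levels of 156, 105 and 88.5 CPM and the day 14 level of 91.6 CPM. The separation from those libraries therefore cannot be read from sham replicate 4. Ratios of pooled counts, here and below, use counts rounded to whole numbers and so can differ from ratios of the pooled CPM. Over pooled counts the level at day 2 was 4.50-fold that of sham (exact interval 2.18 to 11.2), with 7 counts in sham, and at day 14 it was 5.93-fold (2.86 to 14.8). Sham replicate 2 held most of the sham counts, and without it these ratios were 11.8 (3.25 to 97.4) and 15.5 (4.28 to 128).

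Markers of other cells moved with the groups in these cells. The summed neutrophil markers stood at 276 to 3716 CPM in young sham, 182 to 352 CPM at day 2 and 73.3 to 167 CPM at day 14, and the summed microglial markers at 0 to 636, 270 to 877 and 373 to 2528 CPM. The summed markers of border-associated macrophages stood at 1073 to 1485 CPM in sham, 691 to 1311 CPM at day 2 and 403 to 580 CPM at day 14, below both other groups. The monocyte and macrophage list stood at 35720 to 44150, 27040 to 39030 and 26930 to 56010 CPM. The part of these markers in the Vegfa result was not tested. The makeup of the cells differed as well, since MdC3 was 67.4% to 91.5% of them in sham, 11.8% to 16.6% at day 2 and 8.09% to 20.1% at day 14. Within MdC3 Vegfa stood at 12.7, 52.0, 0 and 0 CPM in sham, 56.3, 121, 39.2 and 24.4 CPM at day 2 and 95.9, 95.8, 46.7 and 63.2 CPM at day 14. Both stroke groups overlapped sham there through sham replicate 2, and the 3 counts in sham gave a pooled interval of 3.71 to 53.1 CPM, which overlaps those of day 2 (37.7 to 65.1) and day 14 (44.6 to 114).

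In edgeR's quasi-likelihood test the log2 fold change of Vegfa was 2.54 ± 0.63 (SE) at day 2, with a Benjamini-Hochberg adjusted p of 0.0249. At day 14 it was 2.95 ± 0.62, with an adjusted p of 0.0102. Vegfa was the 1 of 2 members tested in MdC that was called in each comparison, against 6.71% of 8080 genes at day 2 (5.66% higher) and 5.15% at day 14 (4.21% higher). Called means an adjusted p under 0.05, and the median gene stood 0.29 and 0.28 above 0 on the log2 scale. Without sham replicate 2, the highest of the 4, the differences were 4.12 (adjusted p = 0.00748) and 4.47 (adjusted p = 0.00399). Without sham replicate 1 both calls were lost (adjusted p = 0.116 at day 2 and 0.0755 at day 14). The day 2 call was also lost without sham replicate 3 (0.0633), without day 2 replicate 1 (0.0576), with library size as the only scaling (0.0778, with 4.39% of genes called) and with cells of 500 or more counts alone (0.0578, with 3.66%).

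Between the times the difference in Vegfa was 0.41 ± 0.38 with an adjusted p of 0.80, when 1.79% of genes were called. The subtypes that made up the monocyte-derived cells differed between the times: MdC6 was 0.341% to 7.75% of them at day 2 and 32.6% to 35.5% at day 14, and MdC2 was 26.1% to 30.7% and then 2.74% to 5.48%. In 3 of the 6 subtypes the pooled level at day 14 lay above that at day 2 with separate intervals. In MdC2 it was 217 CPM (200 to 235) at day 2 and 507 CPM (381 to 662) at day 14, in MdC1 93.7 (82.8 to 106) and 337 CPM (220 to 496), and in MdC4 126 (108 to 147) and 252 CPM (220 to 287). Replicate 1 held 19.9 of the 25.7 day 14 counts in MdC1. The intervals of the times overlap in MdC3, MdC6, at 109 (65.5 to 169) and 127 CPM (111 to 144), and MdC5, at 158 (133 to 186) and 207 CPM (178 to 240). By library MdC2 stood at 292, 282, 161 and 146 CPM at day 2 and at 586, 496 and 255 CPM in the 3 day 14 libraries with 20 or more such cells. MdC4 stood at 185, 145, 96.5 and 70.9 CPM and at 344, 242, 113 and 277 CPM. The ranges of the times overlapped in both subtypes, and MdC4 was higher at day 14 in all 4 pairs of replicate numbers. The difference within subtypes was not tested.

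In aged mice Vegfa in these cells was 0 and 20.4 CPM after sham, 305, 326 and 112 CPM at day 2, and 129 CPM in the day 14 library. The aged sham libraries held 1 rounded count of Vegfa between them, which gave a ratio of 14.9 with an exact interval of 2.66 to 589. Without the male sham library it was 8.32 (1.49 to 329), and without the female one, which held that count, the level was at least 2.18-fold higher with sham set at 3 counts.

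**Figure D1:**
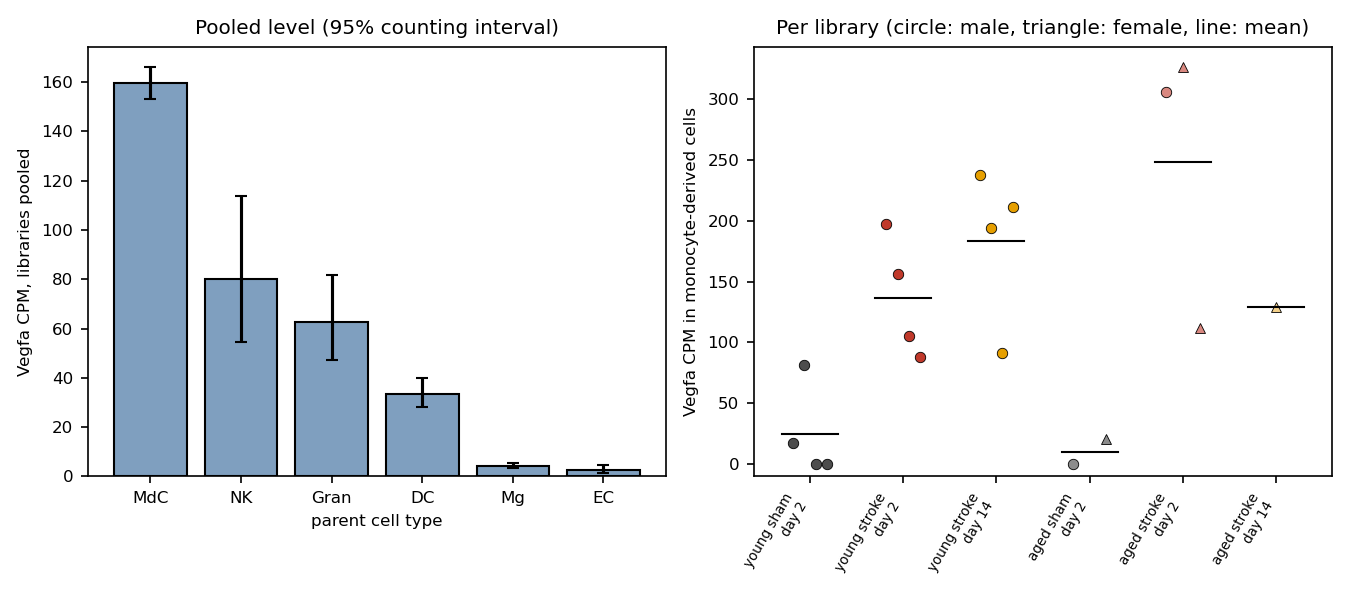
Vegfa by cell type and by library. Left, CPM over all 18 libraries pooled (vertical axis) for each parent type with enough counts and for EC, with 95% counting intervals; MdC stands highest at 160 CPM and EC lowest at 2.65 CPM. Right, CPM in monocyte-derived cells of each library (circles male, triangles female, lines group means). Every young stroke library, from 88.5 to 238 CPM, lies above the young sham libraries. In sham replicate 4, at 0, 3 counts would be 164 CPM.

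The hypoxia response list, which holds textbook targets of the low-oxygen response and its regulators Hif1a and Epas1, had 10 of 13 genes tested in monocyte-derived cells. At day 2 against sham 4 rose and 0 fell, when 5.66% of genes rose, and the list's median was 1.14, beside 0.29 over all genes. Those that rose were Hilpda, which slows lipid breakdown (3.02 ± 0.55, adjusted p = 0.0043), Pfkfb3, an activator of glycolysis (2.72 ± 0.59, adjusted p = 0.0131), Hif1a, the oxygen-regulated transcription factor (1.70 ± 0.32, adjusted p = 0.00577), and Ldha, which makes lactate (1.44 ± 0.31, adjusted p = 0.0116). At day 14 against sham 2 rose, Hif1a and Pfkfb3, when 4.21% of genes did, and the median was 0.00, beside 0.28 over all genes. Of the VEGF co-receptors, Nrp2 rose at day 2 (4.21 ± 0.93, adjusted p = 0.0142) and Nrp1 at day 14 (1.87 ± 0.46, adjusted p = 0.0261). The few sham cells and the shift in subtype makeup given for Vegfa apply to these calls as well. The part of the makeup in them was not tested.

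Flt1, the high-affinity VEGF receptor, was lower in endothelial cells at day 2 after stroke and back near the sham level at day 14. In young sham libraries it stood at 5122, 4296, 5384 and 5019 CPM (mean 4955 ± 466, SD, n = 4). At day 2 it stood at 1835, 2047, 1952 and 1790 CPM (1906 ± 116, n = 4), and at day 14 at 3740, 4428, 3484 and 5063 CPM (4179 ± 712, n = 4). The day 2 libraries lay below all the others, and day 14 overlapped sham. Within the libraries of low mitochondrial share, sham replicate 1 had 5122 CPM against 1835 and 2047 CPM at day 2, and in the other libraries sham had 4296 to 5384 CPM against 1952 and 1790 CPM.

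Flt1 fell by 1.28 ± 0.21 on the log2 scale at day 2 against sham (edgeR adjusted p = 0.00188), the 1 call among the 4 members tested in EC. In that comparison 13.3% of 5834 genes were called, 6.44% of them lower and 6.89% higher as shares of those tested. From day 2 to day 14 Flt1 rose by 1.04 ± 0.21 (adjusted p = 0.00581), 1 of 2 calls among the 4, when 11.2% of genes were called and 5.06% were higher. That call was lost in the fit without the filter on low counts (0.99, adjusted p = 0.0872, with 2.29% of 17667 genes called), where the fall at day 2 kept its call. Against sham at day 14 the difference was -0.25 ± 0.21 (adjusted p = 0.949). No gene was called there by edgeR (0.00% of 5834), with 357 at an unadjusted p under 0.05, none of them a member, and 9 called by DESeq2. Both stroke times share the sham libraries, and the fall and the rise share the day 2 libraries, so these comparisons are not independent. The summed endothelial markers were also lower at day 2, at 14410 to 21000 CPM against 20410 to 29780 CPM in sham and 20560 to 26490 CPM at day 14, and the summed mural markers in these cells stood at 116 to 585 CPM in sham (median 512), 67.9 to 240 CPM at day 2 (median 96.8) and 98.9 to 849 CPM at day 14 (median 277). Of the 8 mural markers 5 had 10 or more counts in EC. The part of either list in the results on endothelial members was not tested.

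Kdr, the main signalling receptor, was called in no comparison of the young groups. Sham libraries stood at 363, 374, 610 and 648 CPM, day 2 at 528, 401, 411 and 243 CPM, and day 14 at 649, 668, 413 and 506 CPM. The groups overlapped throughout. Its log2 difference at day 2 against sham was -0.24 ± 0.27 (adjusted p = 0.588), and with cells of 500 or more counts alone it was 0.36. From day 2 to day 14 it was 0.42 ± 0.27 (adjusted p = 0.344). The labels state no pairing of the libraries. With the stroke times matched by replicate number, Kdr was higher at day 14 in all 4 pairs. With the pairing as a replicate block the adjusted p was 0.371, and 0.158 with the stroke groups alone in the fit.

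**Figure D2:**
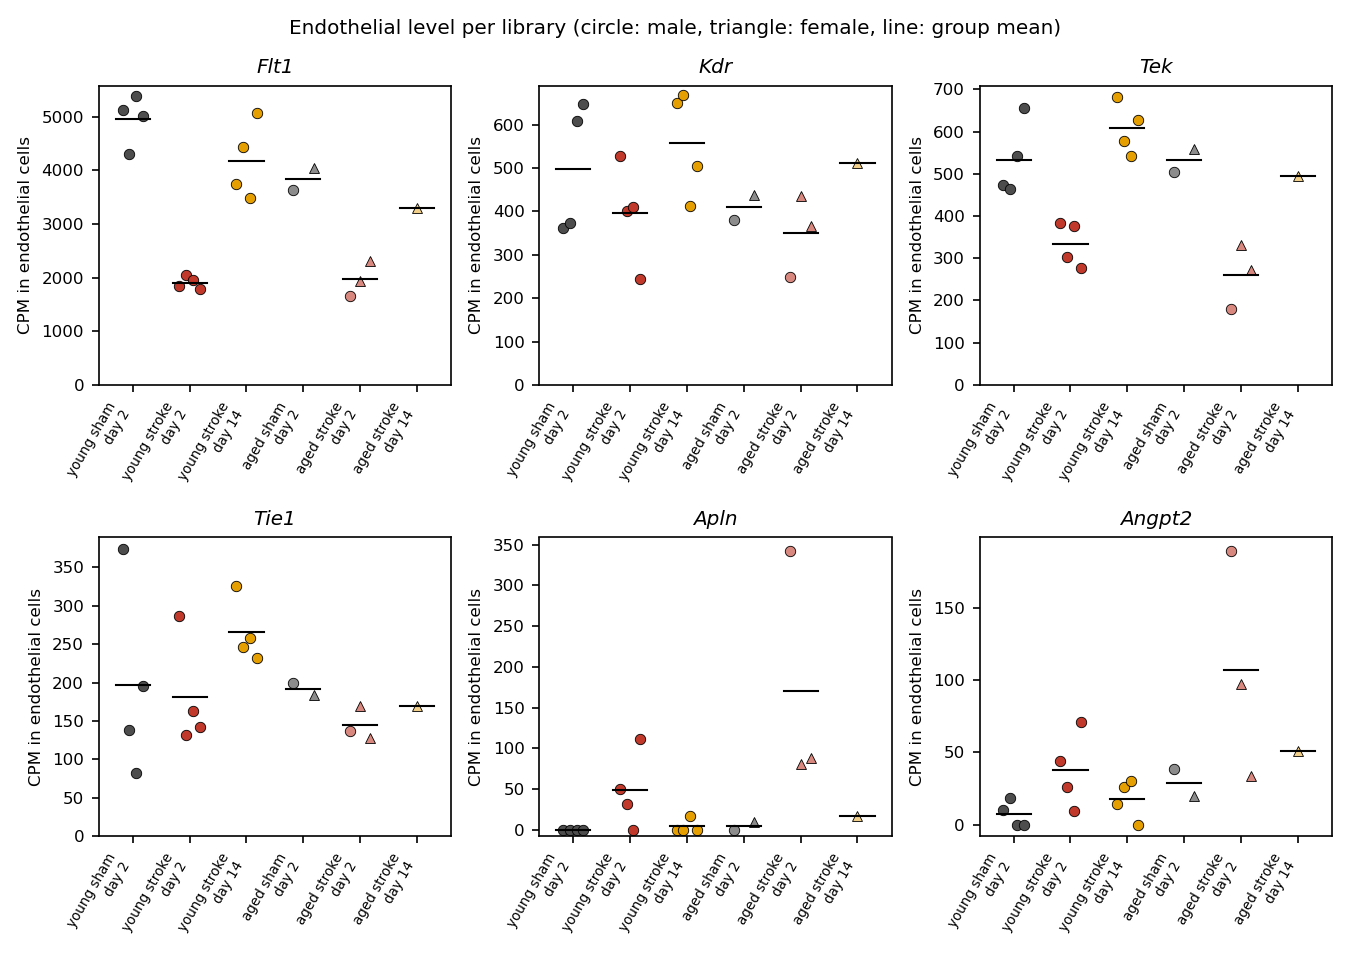
CPM of 6 members in endothelial cells (vertical axes, a separate scale per gene) for each of the 18 libraries by group, with circles for male, triangles for female and lines for group means. Flt1 and Tek of the young day 2 stroke libraries, at 1790 to 2047 and 277 to 383 CPM, lie below all young sham and day 14 libraries, and Apln is at 0 in the 4 young sham libraries.

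The endothelial cells sampled at day 2 were of a different makeup. The deposited subtype EC2 made up 0.339% to 5.49% of endothelial cells in young sham libraries, 32.7% to 59.2% at day 2 and 0.315% to 4.75% at day 14. EC1, the most common subtype in sham at 47.4% to 67.8%, was 19.4% to 27.8% at day 2. In aged mice EC2 was 0.84% to 3.76% in sham, 50.5% to 72.1% at day 2 and 5.68% at day 14. Over all libraries Flt1 stood at 1328 CPM (1270 to 1390) in EC2, against 4189 (4090 to 4290) in EC1, 3986 (3840 to 4140) in EC3, 3765 (3590 to 3950) in EC4, 3495 (3040 to 4000) in EC8 and 3402 (3220 to 3590) in EC5. EC6 at 1698 (1550 to 1850), EC7 at 1432 (1220 to 1670) and EC9 at 1266 CPM (988 to 1600) were low as well, and the intervals of EC2, EC7 and EC9 overlap. These levels, and those of other members by endothelial subtype below, pool groups of unequal subtype makeup, so they mix time with subtype. In young mice EC9 had 6188 CPM (3660 to 9800) in sham, on 9 cells of 1 library, and 838 CPM (586 to 1160) at day 2. EC6 had 3534 CPM in sham replicate 2 and 1684, 1110 and 1060 CPM at day 2. The EC7 intervals overlap, at 1751 (1340 to 2250) and 1436 CPM (1070 to 1880).

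With the EC2 cells left out, an alternative chosen after the data had been seen, the Flt1 difference at day 2 was -0.86 with an adjusted p of 0.0677, and no member was called. In that fit 1.11% of 4941 genes were called at day 2 against sham and 0.587% between the stroke times. The rise from day 2 to day 14 was then 0.62 with an adjusted p of 0.189. Within EC1, EC3, EC4 and EC5 Flt1 was lower at day 2 in most libraries, and the call was not reached where a test was run. EC8 went the other way, at 3072 CPM (2200 to 4180) in young sham and 4743 CPM (3700 to 5990) at day 2, on 32 and 22 cells with overlapping intervals. In EC1 the sham libraries stood at 6130, 4367, 5875 and 5705 CPM and the day 2 libraries at 2219, 4801, 2454 and 2592 CPM. Day 2 replicate 2 lay within the sham range and the other 3 below it, and the log2 difference was -0.85 ± 0.29 (edgeR adjusted p = 0.113, with 0.598% of 2174 genes called).

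In EC4 the sham libraries stood at 4877, 5212, 4772 and 4083 CPM and the day 2 libraries at 3180, 3260, 2889 and 2320 CPM, below all sham libraries as for 4.21% of the genes tested there. The difference was -0.75 ± 0.23 (edgeR adjusted p = 0.179, with 0.443% of 902 genes called). In EC3, with 3 libraries per group, sham stood at 5340, 3853 and 5230 CPM and day 2 at 4108, 3202 and 2829 CPM. The groups overlapped, and the difference was -0.53 ± 0.28 (edgeR adjusted p = 0.803), with 0.00% of 1008 genes called and 63 at an unadjusted p under 0.05. In EC5 the 2 sham libraries with 20 or more cells stood at 4218 and 4122 CPM and the 3 at day 2 at 2399, 3135 and 2308 CPM, too few for a test. Within EC2 too few libraries outside day 2 had 20 or more cells for a comparison: sham replicate 1, with 30 such cells, had 4065 CPM, day 2 libraries had 1284, 1356, 1202 and 1021 CPM, and the 1 day 14 library with 20 or more such cells had 2774 CPM.

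**Figure D3:**
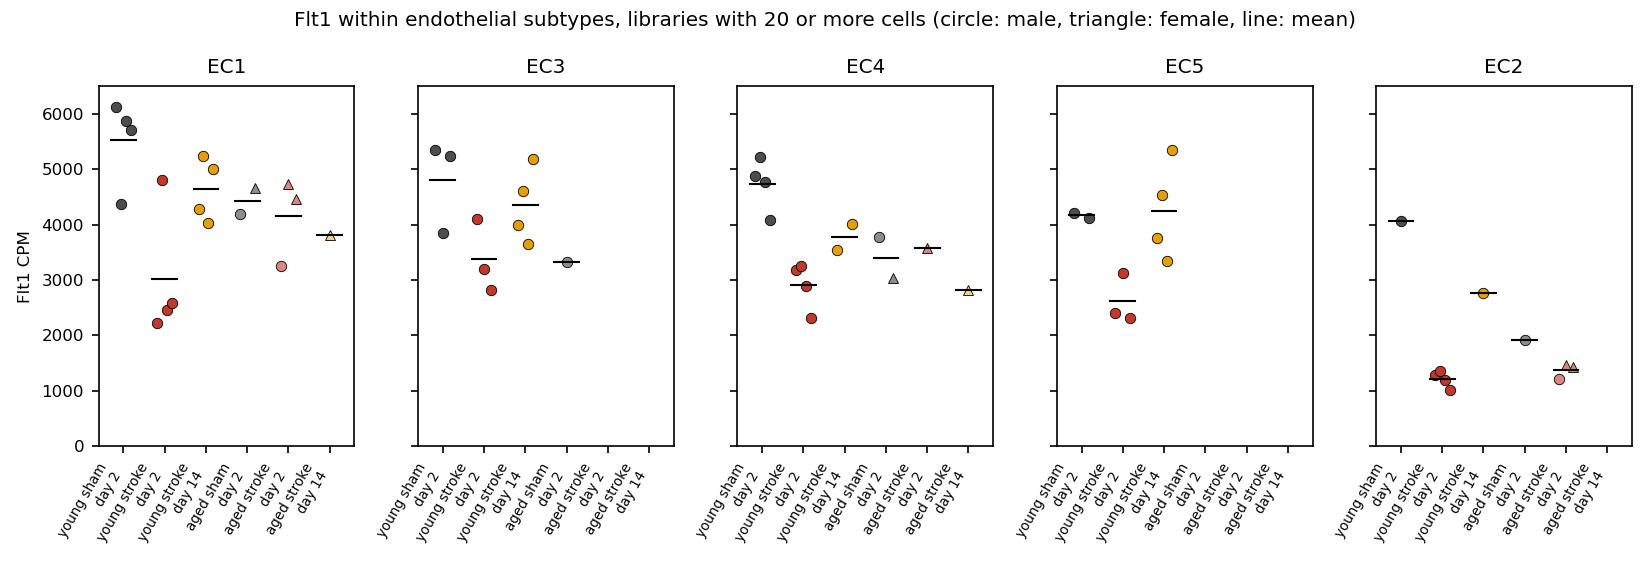
Flt1 CPM (vertical axis, shared) within 5 endothelial subtypes, for each library with 20 or more cells of the subtype by group, with circles for male, triangles for female and lines for group means. In EC4 the day 2 stroke libraries of young mice, at 2320 to 3260 CPM, lie below the sham libraries at 4083 to 5212 CPM; in EC1, 1 day 2 library at 4801 CPM lies within the sham range.

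Kdr was set apart by another subtype. It stood at 2152 CPM (1800 to 2550) in EC8, a subtype of 105 cells, against 535 (482 to 592) in EC3, 508 (473 to 544) in EC1, 489 (421 to 564) in EC5, 355 (324 to 388) in EC2, 301 (242 to 370) in EC6 and 178 CPM (141 to 221) in EC4. In EC7 Kdr had too few counts. Its level in EC8 was 2812 CPM (1980 to 3880) over the young sham libraries, 2331 (1620 to 3250) at day 2 and 2039 (1510 to 2700) at day 14, with 32, 22 and 28 cells. These intervals overlap, so no difference between the groups was detectable at this depth.

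The endothelium held 98.1% of the Flt1 counts of the cells sampled. Flt1 in the mural code MC stood at 974 CPM (808 to 1170), nearly all of it in the subtype MC2 with 112 of 120 counts (2204 CPM, 1810 to 2650) against 109 CPM (46.8 to 216) in MC1. The level in MC2, a subtype of 88 cells, lies above the intervals of the endothelial subtypes EC2, EC7 and EC9, and its interval overlaps that of EC6. The MC2 cells also held Kdr at 175 CPM (79.9 to 334), Tie1 at 97.8 (31.6 to 229) and Tek at 78.0 CPM (21.1 to 200), each with too few counts. Doublets were not called, and the part of endothelial RNA in these levels was not tested. Kdr was also found in dendritic cells at 24.2 CPM (19.6 to 29.6), highest in DC6 at 93.7 CPM (65.0 to 131), and in monocyte-derived cells at 12.6 CPM (10.9 to 14.5), highest in MdC4 at 31.1 CPM (24.8 to 38.5). In monocyte-derived cells the day 2 difference of Kdr from sham was 0.52 ± 1.04 (adjusted p = 0.858) and turned to -0.28 without sham replicate 1.

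Flt1 in microglia came from 2 libraries. Day 14 replicates 1 and 2 of the young mice had 31.5 and 34.7 CPM, on 67.8 and 36.1 counts, and the other 16 libraries had 0. The subtype Mg3 held 74.4 of these counts. Of the libraries at 0, young day 2 stroke replicate 3 had 58 microglia, where 3 counts would be 114 CPM. Its 0 therefore cannot be set against 31.5 and 34.7 CPM. The summed microglial markers of the young day 2 stroke libraries ran from 820 to 15980 CPM (median 15150). No member passed the filter on low counts in microglia. In the fit without that filter Flt1 was the 1 member called at day 14 against sham (adjusted p = 0.026, with 8.85% of 18819 genes called). Both libraries are among the 5 of low mitochondrial share, and so are 3 libraries without Flt1. Cldn5, a defining endothelial marker, was at 0 in microglia of both libraries, while Ly6c1 had 39.7 and 6.9 counts, Itm2a 19.6 and 8.2, and Pecam1 10.2 and 0. Young sham replicate 1 had 44.8 counts of Ly6c1, 16.2 of Itm2a and 30.3 of Pecam1 in its microglia, and 0 of Flt1. In the same comparison the summed monocyte and macrophage markers in microglia stood at 233 to 399 CPM in young sham and 2184 to 3206 CPM at day 14, and the microglial markers at 19900 to 28340 and 13440 to 17650 CPM. The part of these lists in the Flt1 counts was not tested.

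Angpt2, the ligand that opposes Tie2 signalling, was scarce in sham endothelium and higher on average at day 2. Sham libraries stood at 10.3, 18.3, 0 and 0 CPM, day 2 at 44.4, 25.9, 9.53 and 70.9 CPM, and day 14 at 14.1, 26.2, 30.0 and 0 CPM. Day 2 replicate 3 lay within the sham range. Over pooled counts the day 2 level was 4.18-fold that of sham (exact interval 2.10 to 9.43), with 89 counts against 9, and 2.33-fold that of day 14 (1.44 to 3.96). Day 2 replicate 4 held 51.7 of the day 2 counts, and without it the ratios were 2.77 (1.32 to 6.52) and 1.55 (0.886 to 2.78). Without sham replicate 2 the ratio to sham was 6.46 (2.44 to 24.2). Angpt2 did not pass the filter on low counts in young mice. Without it the difference from sham was 2.11 with an adjusted p of 0.0627, which missed the threshold. Mcph1, the gene on the other strand, stood at 10.9 CPM in EC.

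The subtype EC5 had the highest Angpt2 level, 145 CPM (109 to 188), followed by EC2 at 69.2 CPM (56.0 to 84.7). In the other subtypes Angpt2 was at or under 22.7 CPM with too few counts. In young mice at day 2 the EC5 counts, 41.8 in all, lay in 6 of 194 cells, and 1 endothelial cell of that group held 17.9. The EC5 level was 541 CPM in day 2 replicate 4, 262 in replicate 1 and 0 in replicate 3, the libraries with 20 or more such cells. Apln in EC5 had the same order over these libraries, at 610, 78.5 and 0 CPM.

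Tek, the angiopoietin receptor, was also lowest at day 2, and its mean was highest at day 14. Sham libraries stood at 474, 465, 542 and 656 CPM (mean 534 ± 87.9, SD, n = 4). Day 2 stood at 383, 303, 377 and 277 CPM (335 ± 53.2, n = 4), and day 14 at 683, 578, 542 and 627 CPM (608 ± 61.4, n = 4). Day 2 lay below both other groups. Of the 4 members tested, Tek and Flt1 were the 2 whose libraries did not overlap between day 2 and sham, as for 20.0% of all genes, and between day 14 and day 2, as for 19.0%.

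The log2 difference of Tek at day 2 against sham was -0.59 ± 0.20 with an adjusted p of 0.059, just outside the call. It was called with library size as the only scaling (0.047, with 13.2% of genes called), in DESeq2 (0.0499, with 12.7% called) and without sham replicate 1 (0.0303). With the EC2 cells left out the difference was -0.315 (adjusted p = 0.404). From day 2 to day 14 Tek rose by 0.77 ± 0.20 (adjusted p = 0.0204). That call was lost without day 2 replicate 2 (0.0607) or 4 (0.0766), without day 14 replicate 1 (0.0598), 2 (0.0545) or 4 (0.062), without the filter on low counts (0.134), and with the EC2 cells left out (log2 difference 0.49, adjusted p = 0.254). Tek stood at 229 CPM (204 to 256) in EC2 against 554 (517 to 592) in EC1, 541 (487 to 598) in EC3 and 511 (447 to 581) in EC4. These levels pool groups of unequal subtype makeup, so they mix time with subtype. In EC1 alone Tek was 523 to 692 CPM in sham and 441, 537, 436 and 437 CPM at day 2, with a log2 difference of -0.35 ± 0.22 (adjusted p = 0.361).

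Tie1, the partner receptor of Tek, was called in no comparison of the young groups. Sham libraries stood at 374, 138, 82.5 and 195 CPM, day 2 at 286, 132, 163 and 142 CPM, and day 14 at 326, 246, 258 and 232 CPM. Sham replicate 1 was the highest of all, and the groups overlapped. The log2 difference at day 2 was -0.09 ± 0.32 (adjusted p = 0.887) and turned to 0.42 without sham replicate 1. From day 2 to day 14 it was 0.47 ± 0.31 (adjusted p = 0.351). Tie1 was higher at day 14 in all 4 pairs of replicate numbers, and with the pairing as a block the adjusted p was 0.194, and 0.103 with the stroke groups alone in the fit. Across subtypes Tie1 stood between 166 CPM (145 to 189) in EC2 and 355 CPM (222 to 539) in EC8, with EC9 too low in counts.

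**Figure D4:**
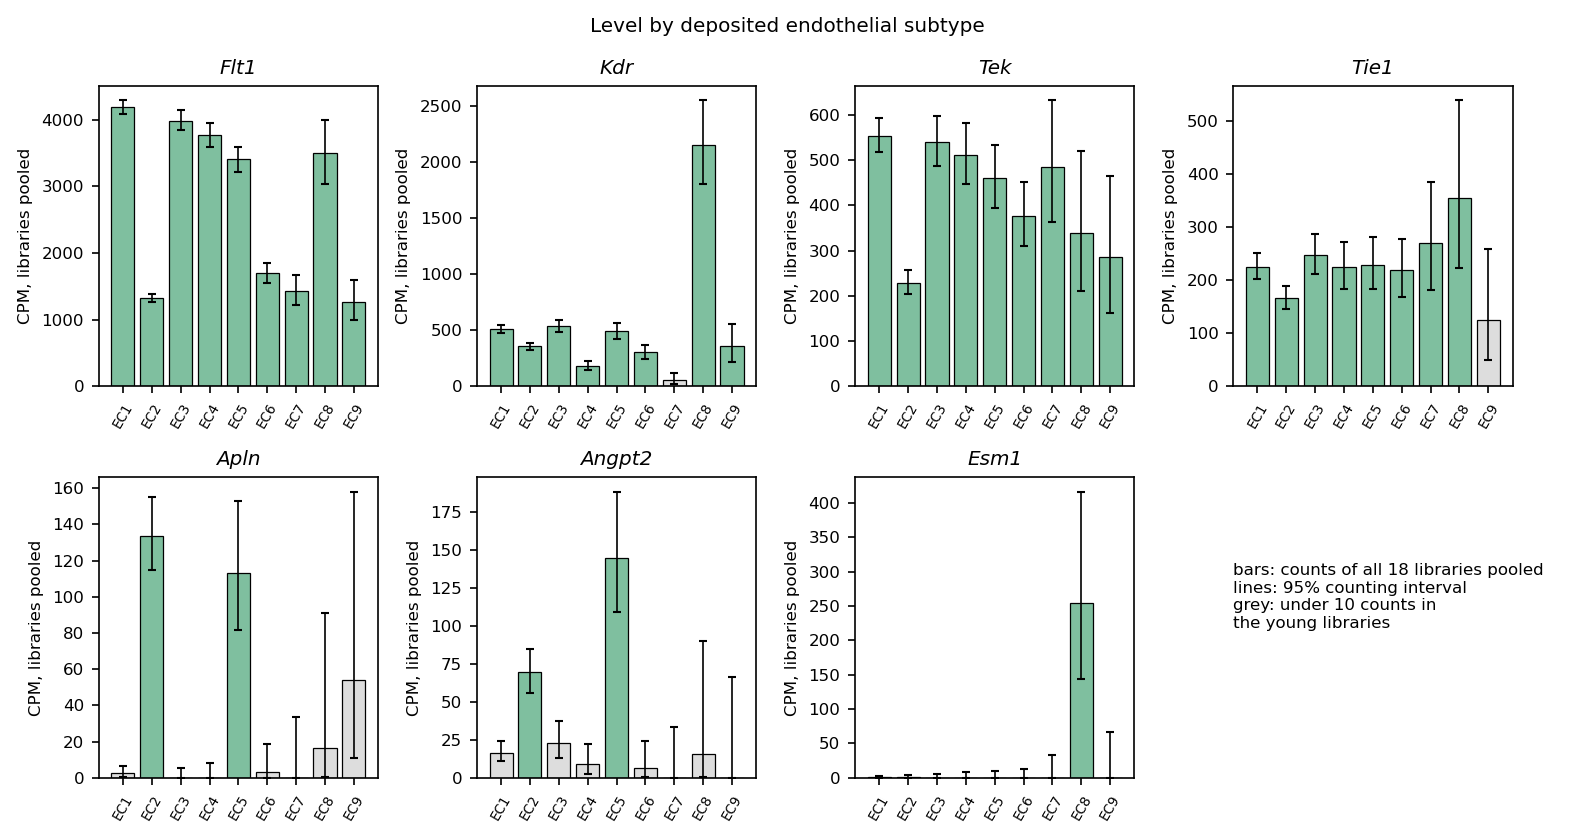
CPM of 7 members (vertical axes, a separate scale per gene) in the 9 deposited endothelial subtypes over all 18 libraries pooled, with 95% counting intervals and grey bars where a member had under 10 counts in the young libraries. EC2 is low in Flt1 (1328 CPM) and Tek (229 CPM), EC8 is high in Kdr (2152 CPM) and Esm1 (255 CPM), and Apln is found mainly in EC2 (134 CPM) and EC5 (113 CPM). The pooled groups differ in subtype makeup, so time and subtype are mixed.

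Apln, which encodes the peptide apelin, was detected in the endothelium after stroke at day 2 and hardly elsewhere. The 4 young sham libraries had 0 counts. At day 2 the level was 49.7, 31.9, 0 and 112 CPM, and at day 14 it was 0, 0, 17.2 and 0 CPM. Day 2 replicate 3 had none, so the groups overlap at 0. Over the group, 121 counts at day 2 against 0 in sham made the pooled level at least 17.0-fold higher, with sham set at 3 counts over the group. Against day 14, with 4 counts, the ratio was 16.7 (exact interval 6.34 to 62.1). Day 2 replicate 4 held 81.7 of the 121 counts, and without it the bound was 8.51-fold and the ratio 8.34 (3.01 to 32.1). The bound was 9.58-fold without sham replicate 1, and the ratio 8.36 (3.18 to 31.2) without day 14 replicate 1, the deepest libraries of their groups.

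Apln did not pass the filter on low counts in young mice. In the fit without it, in which 3.47% of 17667 genes were called at day 2 against sham, Apln was called (adjusted p = 0.00106), and it was also called lower at day 14 than at day 2 (adjusted p = 0.00879, with 2.29% of genes called). Where leaving out 1 library let it pass the filter, its adjusted p at day 2 was 0.0371 to 0.0919. In those fits Apln passed through the day 2 libraries, where it was high, so these p-values add no separate support. Its counts lay in few cells: 60 of 2491 endothelial cells at day 2, with at most 10.0 counts in a cell. EC2 held 182 of 234 counts over all libraries and EC5 held 42.9, at 134 CPM (115 to 155) and 113 CPM (81.9 to 153), while EC3, EC4 and EC7 had 0. In EC2 of the day 2 libraries Apln stood at 85.4, 33.5, 0 and 154 CPM. Over all libraries 116 endothelial cells had Apln, 115 had Angpt2 and 27 had both, of 7627.

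Esm1, a secreted proteoglycan, had 17.2 counts in EC over all libraries, and 15.6 of them fell in EC8 (255 CPM, 144 to 416). They came from 13 of 105 EC8 cells, in 3 libraries: young day 14 replicates 1 and 2 and the aged male sham library. Both young libraries are among the 5 of low mitochondrial share. The young sham and day 2 libraries had 0 counts of Esm1 in 32 and 22 EC8 cells, which allows up to 283 and 249 CPM by the exact interval, so the day 14 level of 459 CPM (229 to 822) is not separate from theirs. Gzmk, on the opposite strand, had 0 counts in EC8. In T cells, which held 127 CPM of Gzmk, 7.7 counts of Esm1 were listed.

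**Figure D5:**
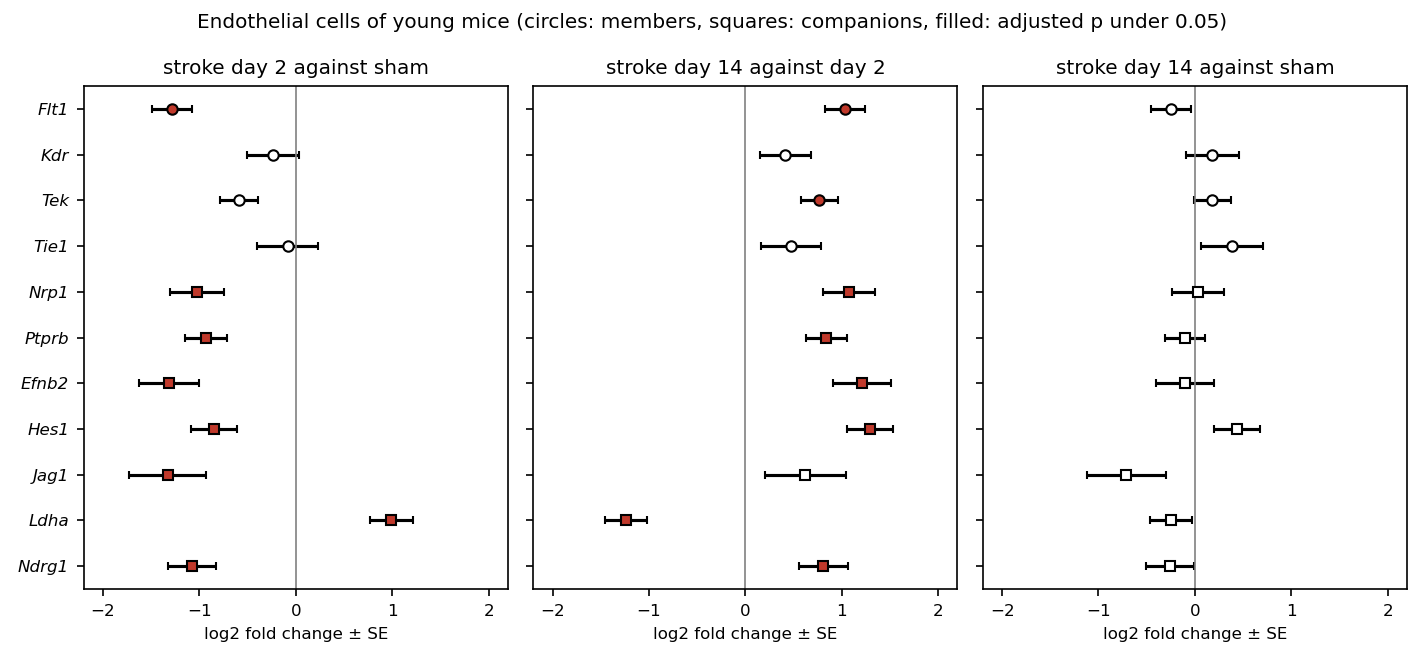
Log2 fold change with its SE (horizontal axis) in endothelial cells of young mice for the 4 members tested (circles) and the companion genes that were called (squares), in 3 comparisons; filled symbols have an adjusted p under 0.05. Flt1 is at -1.28 at day 2 against sham and at 1.04 from day 2 to day 14, and no gene is filled for day 14 against sham.

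Companion genes of these pathways showed calls in both directions. Their fits include the EC2 cells, whose share of the endothelial cells differed between the groups as given above. The part of that makeup in the companion calls was not tested. Of 7 VEGF axis companions 3 were tested at day 2 against sham, where 6.44% of all genes fell and 6.89% rose. Nrp1, a VEGF co-receptor, fell by 1.03 ± 0.28 (adjusted p = 0.0236), from 320 to 512 CPM in sham to 111 to 265 CPM. Nrp2 at 0.82 and Flt4 at -0.35 were not called. Of 7 angiopoietin and Tie companions 4 were tested. Ptprb, the phosphatase that acts on Tie2, fell by 0.93 ± 0.22 (adjusted p = 0.0121), from 1160 to 1760 CPM to 557 to 885 CPM. Angptl4 at 0.65 and Foxo1 at -0.11 were not called. Both called genes rose from day 2 to day 14, Nrp1 by 1.07 ± 0.27 (adjusted p = 0.0215) and Ptprb by 0.84 ± 0.21 (adjusted p = 0.0219). Here and below, the comparisons with sham and between the stroke times share the day 2 libraries and are not independent.

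Of 17 tip cell and Notch companions 13 were tested at day 2, and 3 fell and 0 rose, beside 6.44% and 6.89% of all genes. Efnb2, the arterial ephrin ligand, fell by 1.32 ± 0.31 (adjusted p = 0.0126). Jag1, a Notch ligand, fell by 1.33 ± 0.40 (adjusted p = 0.0393), and Hes1, a Notch target, by 0.85 ± 0.24 (adjusted p = 0.0306). Plaur at 1.12 and Notch4 at -0.74 were not called. Efnb2 and Hes1 rose again by day 14, when 5.06% of all genes rose, by 1.21 ± 0.30 (adjusted p = 0.018) and 1.29 ± 0.24 (adjusted p = 0.00348), the 2 calls among the 13.

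None of the 4 apelin and adrenomedullin companions tested was called by edgeR at day 2, with none at an unadjusted p under 0.05. The most distant from 0 were Ramp3 at 0.86 and Calcrl at 0.38, both parts of adrenomedullin receptors. Of 13 hypoxia response genes 9 were tested. Ldha rose by 0.99 ± 0.22 (adjusted p = 0.0089), from 289 to 480 CPM to 622 to 870 CPM, while Ndrg1, a stress-response gene, fell by 1.08 ± 0.25 (adjusted p = 0.0134). Pgk1 at 0.92 and Epas1 at -0.52 were not called. By day 14 Ldha fell by 1.24 ± 0.22 (adjusted p = 0.00263) and Ndrg1 rose by 0.81 ± 0.25 (adjusted p = 0.0489). List medians at day 2 were -0.35 for the VEGF axis, -0.10 for the angiopoietin and Tie list, 0.25 for the apelin and adrenomedullin list, -0.53 for the tip cell and Notch list and -0.21 for the hypoxia list, beside 0.00 over all genes.

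Over the 12 young endothelial libraries, the genes whose log2(CPM + 1) most resembled that of Flt1 among 6819 genes were Cd2ap, Igf1r and Lef1, with Pearson r of 0.96, 0.96 and 0.95. For Tek they were Inpp1, Ablim1 and Pias3 (0.94, 0.92 and 0.92), and for Tie1 Smarcd1, Por and Scarf1 (0.91, 0.86 and 0.85). These are the highest of many correlations over libraries that share the same groups and subtype makeup, and are a description.

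In aged mice Flt1 and Tek were again lower on average at day 2 after stroke, and Apln and Angpt2 higher, with fewer libraries. Flt1 in endothelial cells was 3634 and 4043 CPM after sham, 1652, 1931 and 2311 CPM at day 2 after stroke and 3302 CPM in the day 14 library. Tek was 505 and 559 CPM after sham, 180, 331 and 271 CPM at day 2 and 494 CPM at day 14. Day 2 lay below the other libraries for both genes, as for 9.49% of the 6604 genes tested. The summed endothelial markers in these cells were also lower at day 2, at 11530 to 17490 CPM against 19240 to 21030 CPM in sham and 19730 CPM at day 14, and their part in these results was not tested. Apln was 0 and 10.2 CPM after sham, 342, 80.9 and 88.4 CPM at day 2 and 17.1 CPM at day 14, and Angpt2 was 38.5 and 19.8, then 189, 97.1 and 33.8, then 50.9 CPM. The male day 2 library was the highest for Apln and Angpt2, and sex and replicate cannot be told apart there. EC2 held 105 of the 108 aged Apln counts at day 2.

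Of 6 members tested in aged endothelium none was called by edgeR at day 2 against sham, where 0.606% of 6604 genes were. The edgeR differences were -0.93 ± 0.24 for Flt1 (adjusted p = 0.0963), -1.003 ± 0.28 for Tek (adjusted p = 0.122), 5.80 for Apln (adjusted p = 0.184) and 1.83 ± 0.86 for Angpt2 (adjusted p = 0.423). DESeq2 called Flt1 (adjusted p = 0.000819) and Tek (0.0432), with 1.41% of genes called, and edgeR without the filter on low counts called Apln (1.01e-08), with 0.768%. With the EC2 cells left out the differences were -0.36 for Flt1 (adjusted p = 0.994) and -0.581 for Tek (adjusted p = 0.989). Kdr, at 381 and 437 CPM after sham and 249, 435 and 366 CPM at day 2, and Tie1, at 200 and 183 then 136, 170 and 128 CPM, had differences of -0.19 and -0.37.

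The interaction of age and stroke at day 2, which asks whether the stroke difference differed with age, was called by edgeR for none of the 6 members. The deposited tables of the aged libraries list 27514 genes and those of the young 19704, and the young libraries are all male. In this term and in the ratios below, age therefore cannot be told apart from a difference between the tables, nor fully from sex. The interaction was 0.34 ± 0.30 for Flt1 (adjusted p = 0.861) and -0.44 ± 0.35 for Tek (adjusted p = 0.849). It was called for no gene by edgeR (0.00% of 6604, with 357 at an unadjusted p under 0.05) nor by DESeq2, and for 126 of 17587 genes without the filter on low counts. Pooled over its libraries, Apln at day 2 was 208 CPM in aged and 58.8 CPM in young mice, a ratio of 3.53 (exact interval 2.69 to 4.61). For Angpt2 the ratio was 2.84 (2.03 to 3.96). The aged male library held 84.8 of the 108 aged Apln counts, and without it the ratios were 1.44 (0.879 to 2.26) for Apln and 1.45 (0.807 to 2.45) for Angpt2, with intervals that hold 1. Leaving it out sets aged females against young males. With all aged libraries and without young day 2 replicate 4 the ratios were 7.04 (4.84 to 10.4) and 4.28 (2.82 to 6.58). The intervals cover counting error and not the spread between libraries, and the ranges of the libraries overlap for both genes.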

How the data were processed

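The authors deposited expected counts per gene and cell, not whole numbers, with a cell annotation at 2 levels and the percent of mitochondrial counts of each cell, both made by the authors. The submitters' processing notes name mm10 and Seurat. The aligner, the counting and the cell filters are not given in the sources used here. Sums of each cell type within a library were rounded to whole counts and entered into edgeR 4.0.16 (quasi-likelihood test, TMM scaling, filterByExpr, Benjamini-Hochberg adjustment over all genes tested, two-sided) on libraries with 20 or more cells of the type. Contrasts needed 3 such libraries per group, except the aged one. Young fits held the 3 young groups, and aged fits the 4 day 2 groups. Depth per library ran from 819438 to 5855047 counts. The fit was tested on simulated data: for EC at day 2 against sham (5580 genes) it recovered 32.2% of 2-fold and 99.1% of 4-fold changes, and for MdC between the stroke times (7654 genes) 13% and 77%. The alternatives were other scaling and filters, DESeq2 1.42.0, left-out libraries or cells, and a replicate block. The labels state no pairing. The stroke times were matched by replicate number after libraries of the same number were seen to correlate (0.139 to 0.478 in EC, 0.268 to 0.758 in MdC), and stroke was not matched with sham. Replicates 1 and 2 of both stroke times also had the low mitochondrial share. Members and gene lists were chosen with earlier results of these data known. Named were all 8 members, companion genes called in EC plus at most 2 more per list by size, and the 3 most alike genes per tested member (those of Kdr are not reported here); the MdC companions named were chosen after their values were seen. Apela, on the apelin list, was not used here. Doublets were not called here. The 11 blood libraries were not used here.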

Additional observations from a re-analysis of the deposited data

Results flagged for a closer look

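Flt1 in monocyte-derived cells of young day 14 replicate 1 stood at 20.9 CPM, while the other 3 libraries of that group stood at 0.0003 CPM or less. It was set apart because its gap to the next library covered nearly the whole range of the group. Of 28 groups examined in this way 1 was set apart, when chance alone does so in about 1 of 20. The same library was 1 of 2 with Flt1 in microglia, and in its dendritic cells Flt1 stood at 16.5 CPM, against 0 in the other 3 libraries of the group.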

How the results depend on the processing

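For endothelial cells at day 2 against sham, 1 member was called, and 2 were called without the filter on low counts (Apln added), with library size as the only scaling (Tek added) and in DESeq2 (Tek added). Without EC2 cells 0 were called there and 0 from day 2 to day 14. Leaving out 1 library each gave 1 to 2 members at day 2 against sham (4.81% to 17.2% of all genes called) and 1 to 2 between the stroke times (4.80% to 12.4%), where no filter gave 1, Apln, with the calls of Flt1 (0.0872) and Tek (0.134) lost. In microglia at day 14 against sham 0 became 1 without the filter. In monocyte-derived cells at day 2 against sham 1 became 0 with library size or with cells of 500 or more counts, and left-out libraries gave 0 to 1 (2.94% to 6.97% of all genes called), as they did at day 14 against sham (2.55% to 5.87%). In aged endothelium 0 became 1 without the filter and 2 in DESeq2. Kdr at day 2 against sham turned to 0.361 in EC and 0.376 in EC1 with cells of 500 or more counts. Tie1 ran from -0.345 to 0.421 over left-out libraries, and Kdr in MdC from -0.283 to 6.637. The Kdr interaction was -0.127 without the filter, -0.416 with cells of 500 or more counts, -0.317 without EC2 cells and -0.161 to 0.205 over left-out libraries; the Apln interaction ran from -2.833 to 1.735 and the Angpt2 interaction from -1.104 to 0.396, and the Tie1 interaction turned to 0.113 with cells of 500 or more counts. The cause was not tested.

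With the replicate number as a block, Tek in EC4 turned to -0.022 from 0.047 at day 2 against sham. In the pairing of the stroke times the block left 2 members called in EC and 0 in MdC, while all genes called in MdC between those times went from 145 to 469. It changed no other call of a member in the young fits. A term for the libraries of low mitochondrial share changed no count of members. A batch term was not run, since the metadata name none. Apln, Angpt2 and Esm1 rest on few cells, and Vegfa in sham on 7 counts.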

Other observations

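Vegfa in granulocytes, whose neutrophil markers were all 7 at 10 or more counts, did not pass the filter on low counts and is given as values. In young sham libraries it stood at 16.7, 8.50, 64.6 and 19.4 CPM, on 1 to 4 counts each. At day 2 after stroke it stood at 155, 36.9, 28.4 and 10.7 CPM, and at day 14 at 141, 416, 207 and 141 CPM on 3.0 to 19.6 counts. In these libraries 3 counts would be 25.6 to 58.3 CPM in sham and 31.6 to 312 CPM at day 14, so single libraries rest on few counts. In aged mice it stood at 30.4 and 32.4 CPM after sham, at 69.9, 0 and 93.4 CPM at day 2 and at 0 CPM in the day 14 library, where 3 counts would be 259 CPM.

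Vegfa in dendritic cells stood at 14.2, 0, 0 and 0 CPM in young sham libraries, on 61 to 86 cells each. At day 2 it stood at 44.8, 55.2, 25.6 and 25.4 CPM, and at day 14 at 57.6, 17.9, 8.01 and 28.3 CPM. In the sham libraries 3 counts would be 42.7 to 100 CPM, among or above the day 2 levels, so no single sham library at 0 shows a difference. No ratio of pooled counts is given for these cells. The summed markers of border-associated macrophages in these cells stood at 332 to 689 CPM in sham, 83.0 to 124 CPM at day 2 and 26.2 to 101 CPM at day 14. By subtype the highest level was 83.7 CPM (56.6 to 119) in DC6, the dendritic subtype that was also highest for Kdr. DC6 held no sham cells, and 14.9 of its 30.5 Vegfa counts lay in 2 of 126 young day 14 cells.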
